A study of Mus musculus with 10 samples.

Results

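Expression of 9 cytochrome P450 genes of the Cyp2d and Cyp2j subfamilies was followed in livers of mice given phenobarbital and in untreated controls. The 9 genes were Cyp2d9, Cyp2d10, Cyp2d13, Cyp2d22, Cyp2d26, Cyp2d40, Cyp2j5, Cyp2j6 and Cyp2j9. They were found by matching these symbols in the array's platform annotation, which gave 9 of the 18193 measured genes and 13 of the 45101 probe sets, 8 for Cyp2d and 5 for Cyp2j. None of the 13 probe sets carried a second gene symbol. All 10 animals were male B6C3F1/Crl mice (C57BL/6 male x C3H/He female), received when 29 to 32 days old and kept for 5 days before dosing. Phenobarbital was given to 5 of them for 28 days at 0.05% (w/v) in the drinking water, the other 5 were the control group, and the labels name no genetic change in either group. The labels give no vehicle beyond the drinking water and name each array as 1 animal. The expression value of a probe set, a group of short probes for 1 or more transcripts, is on a log2 scale, so a difference of 1 is a doubling.

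Cytochrome P450 enzymes are haem proteins of the endoplasmic reticulum that insert oxygen into their substrates with electrons from a reductase or from cytochrome b5. Cyp2d enzymes oxidise many basic drugs and some steroids. Cyp2j enzymes act on arachidonic acid and other long polyunsaturated fatty acids, forming epoxides and hydroxy acids, and epoxide hydrolases turn the epoxides into diols. Both subfamilies are made in liver without an inducer, while phenobarbital is known for raising Cyp2b and some Cyp2c enzymes through the receptor Nr1i3 (CAR).

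RefSeq places the Cyp2d members in 1 cluster on chromosome 15 and the Cyp2j members in 1 cluster on chromosome 4. In the order of the GRCm38.p6 gene table, Cyp2d22, Cyp2d10 and Cyp2d9 lie at one end of the Cyp2d cluster and Cyp2d40 and Cyp2d26 at the other, with Cyp2d13 between them. Cyp2j6, Cyp2j9 and Cyp2j5 are direct neighbours. RefSeq types 8 of the 9 members as protein coding and Cyp2d13 as a transcribed pseudogene.

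Promoter sequences, from 250 bases before to 50 bases after the transcription start, were found for 7 of the 9 members in the RefSeq table of GRCm38.p6. The pair Cyp2d9 and Cyp2d10 is shown because their promoters were the most alike, and the Cyp2j trio because these neighbours all had lower mean values in treated livers. The windows lie at chr15:82452127-82452426 (plus strand) for Cyp2d9, chr15:82407145-82407444 (minus strand) for Cyp2d10, chr4:96664070-96664369 (minus strand) for Cyp2j5, chr4:96553602-96553901 (minus strand) for Cyp2j6 and chr4:96591436-96591735 (minus strand) for Cyp2j9. Each is written 5′ to 3′ on the gene's strand. Capitals mark the letters of a searched motif, on either strand.
Cyp2d9: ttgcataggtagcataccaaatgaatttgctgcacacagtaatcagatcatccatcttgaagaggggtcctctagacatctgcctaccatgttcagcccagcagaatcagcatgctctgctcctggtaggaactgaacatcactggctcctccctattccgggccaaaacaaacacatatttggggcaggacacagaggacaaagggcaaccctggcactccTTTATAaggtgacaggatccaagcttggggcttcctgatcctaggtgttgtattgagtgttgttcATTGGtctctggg
Cyp2d10: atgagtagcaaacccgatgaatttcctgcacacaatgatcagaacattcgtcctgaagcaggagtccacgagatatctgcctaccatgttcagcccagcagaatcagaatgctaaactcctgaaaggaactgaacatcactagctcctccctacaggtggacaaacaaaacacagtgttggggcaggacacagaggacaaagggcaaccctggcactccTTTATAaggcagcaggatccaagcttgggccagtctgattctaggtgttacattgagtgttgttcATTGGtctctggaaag
Cyp2j5: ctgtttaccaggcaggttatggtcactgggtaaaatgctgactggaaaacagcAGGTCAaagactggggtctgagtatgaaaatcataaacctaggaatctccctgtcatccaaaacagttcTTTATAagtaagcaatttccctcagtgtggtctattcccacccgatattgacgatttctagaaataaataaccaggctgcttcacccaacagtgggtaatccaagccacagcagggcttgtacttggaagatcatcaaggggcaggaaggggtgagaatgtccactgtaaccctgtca
Cyp2j6: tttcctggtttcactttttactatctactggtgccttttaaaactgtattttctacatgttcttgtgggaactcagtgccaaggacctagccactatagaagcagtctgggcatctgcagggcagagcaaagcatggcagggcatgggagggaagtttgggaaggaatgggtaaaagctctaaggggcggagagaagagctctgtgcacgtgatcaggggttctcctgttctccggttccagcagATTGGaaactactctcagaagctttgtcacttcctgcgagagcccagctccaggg
Cyp2j9: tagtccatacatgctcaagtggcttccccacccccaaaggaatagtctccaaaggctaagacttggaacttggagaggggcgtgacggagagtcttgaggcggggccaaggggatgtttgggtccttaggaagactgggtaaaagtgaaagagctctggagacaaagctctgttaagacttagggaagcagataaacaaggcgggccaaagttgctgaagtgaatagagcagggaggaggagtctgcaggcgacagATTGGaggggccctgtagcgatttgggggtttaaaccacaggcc

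Cyp2d9 and Cyp2d10 shared 83.3% of the positions of their global alignment. The 3 pairs within the Cyp2j trio shared from 48.1% to 50.3%, within the range of 47.2% to 51.7% for pairs of 1 Cyp2d and 1 Cyp2j promoter. The motif TATAAA, the TATA box, occurred on either strand in all 4 Cyp2d promoters and in that of Cyp2j5, 5 of 7 in all, and in 13.6% of the 32851 promoters of this length. In all 5 the exact letters were read on the opposite strand, as TTTATA. They began 28 bases before the start in Cyp2d9, 31 in Cyp2d10 and Cyp2d26, 91 in Cyp2d40 and 128 in Cyp2j5. At the same place the gene's own strand reads TATAAG in all 5, which differs from TATAAA in the last letter. The strand of the exact match therefore does not give the direction of a TATA box. CCAAT occurred in 6 of 7, all but Cyp2j5, and in 37.4% of all promoters. In Cyp2j6 and Cyp2j9 the motif was read as ATTGG within 7 bases of the start. AGGTCA, the half-site of nuclear receptors, occurred in Cyp2d40 and Cyp2j5, 2 of 7, and in 16.3% of all promoters. GTTAAT, the core of an HNF1 site, occurred in Cyp2d26 alone, 1 of 7 against 7.1% of all. TTCNNNGAA, the core of a STAT5 site, occurred in 0 of 7 and in 8.3% of all. No 2 of these matches overlapped. A match describes letters in this window and shows no binding.

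The liver label was checked against marker genes. The mean of 8 measured hepatocyte markers lay from 14.44 to 14.48 in controls and from 14.35 to 14.40 in treated animals, near the top of the scale, which ran from 2.34 to 15.13. As the extraction protocol of the labels covers kidney as well, 11 kidney markers were read, and their mean lay from 4.72 to 5.27 in controls and from 4.85 to 5.00 in treated animals. Treatment was visible in Cyp2b10, the classical target of Nr1i3, at 5.62 to 7.07 in controls and 13.45 to 13.56 in treated animals. The arrays also fell into 2 sets by the mean of 24 poly-A spike-in probe sets, which report transcripts added before labelling. Control replicates 1, 2, 3 and 5 formed the set with high means (7.77 to 8.64). The other set held the treated arrays (5.76 to 6.58) together with control replicate 4 (6.40). With the spike-in set as a block, the comparison of each gene is the treated mean against control replicate 4 alone, and 0.484% of all genes were then called higher and 0.302% lower. These values stand beside the member results below, and the part of the spike-in difference in them was not tested.

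Of the 9 members, 2 rose under phenobarbital (Cyp2d10 and Cyp2d22), 2 fell (Cyp2d40 and Cyp2j6) and 5 did not pass the test. A gene was called where limma's p-value, adjusted over all 18193 genes by Benjamini-Hochberg, was under 0.05. The background was 9.02% of genes called higher and 11.3% called lower. The largest of the 4 called changes was 1.25-fold, that of Cyp2j6. The median log2 change of the members was 0.03, against 0.008 for all genes, whose median absolute change was 0.13. Among the 6 Cyp2d members 2 rose, 1 fell and 3 were not called (median 0.10), and among the 3 Cyp2j members 1 fell and 2 were not called (median -0.32). Values of the groups did not overlap for 3 members, higher in Cyp2d10 and lower in Cyp2d40 and Cyp2j5, where 5.73% of all genes had all treated values above and 7.21% all below the control values. With the spike-in set as a block the median was 0.05 for the Cyp2d members, -0.07 for the Cyp2j members and -0.05 for all 9, against -0.04 for all genes. None of the 9 was then called, 7 kept their sign, and 1, Cyp2j6, had an unadjusted limma p under 0.05. As liver was taken whole, fewer cells that make a transcript and less of it per cell cannot be told apart.

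**Figure D1:**
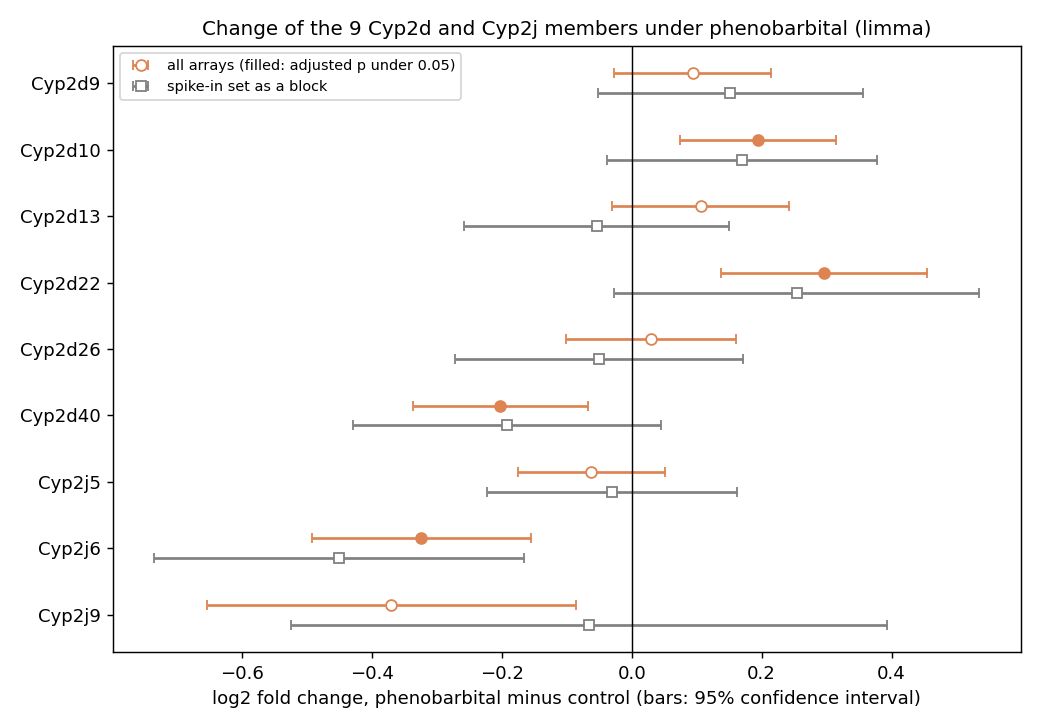
Log2 fold change of each member, phenobarbital minus control, with its 95% confidence interval, from all 10 arrays (circles, filled where the adjusted p was under 0.05) and with the spike-in set as a block (squares). Filled circles stand at 0.19 and 0.30 for Cyp2d10 and Cyp2d22 and at -0.20 and -0.32 for Cyp2d40 and Cyp2j6, and the intervals with the block are wider.

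Cyp2d22, often described as the mouse counterpart of the human drug-metabolising enzyme CYP2D6, had the largest rise among the members. Control replicates 1 to 5 read 11.46, 11.30, 11.17, 11.32 and 11.14, and the treated animals 11.44, 11.61, 11.61, 11.65 and 11.56. Treated replicate 1 lay just under control replicate 1, and the other 4 treated animals lay above all controls. The mean went from 11.28 ± 0.13 to 11.57 ± 0.08 (SD, n = 5 each), a log2 change of 0.30 ± 0.07 (SE) or a rise of 22.8% (limma adjusted p = 0.0153). The change stayed between 0.26 and 0.34 and was called when any 1 of the 10 animals was left out, and it was 0.25 (adjusted p = 0.427) with the spike-in set as a block. A second Cyp2d22 probe set read 10.60, 10.51, 10.53, 10.58 and 10.40 in controls and 10.57, 10.75, 10.74, 10.73 and 10.70 in treated animals. Again treated replicate 1 alone lay within the range of the controls. Its change of 0.17 ± 0.07 was in the same direction and did not pass the test (limma adjusted p = 0.0795 over all probe sets).

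Cyp2d10, a liver Cyp2d enzyme, rose by less but without overlap. The controls read 13.62, 13.56, 13.59, 13.59 and 13.47, and the treated animals 13.73, 13.79, 13.78, 13.75 and 13.75. Every treated animal exceeded every control, and the treated values spanned only 13.73 to 13.79. Means were 13.57 ± 0.06 and 13.76 ± 0.02 (SD, n = 5 each), a log2 change of 0.19 ± 0.06 or a rise of 14.4% (limma adjusted p = 0.0277). The call was lost without control replicate 2 or 5 or without treated replicate 2, 3, 4 or 5, where the change was between 0.17 and 0.20 and the adjusted p between 0.0502 and 0.0669. With the spike-in set as a block the change was 0.17 (adjusted p = 0.474).

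Cyp2d9, a steroid hydroxylase known for its higher level in male than in female mouse liver, was not called. Its controls read 13.94, 13.94, 14.00, 13.87 and 13.89, and its treated animals 14.03, 14.03, 14.08, 13.98 and 13.99. The groups overlapped only through control replicate 3, which lay above treated replicates 4 and 5. The log2 change was 0.09 ± 0.06 (95% interval -0.03 to 0.21, limma adjusted p = 0.25). The interval of Cyp2d9 holds the change measured for Cyp2d10, and the difference between these neighbours was not tested. Cyp2d26, a further liver Cyp2d enzyme, read from 13.35 to 13.47 in controls and from 13.28 to 13.47 in treated animals, a change of 0.03 (95% interval -0.10 to 0.16, limma adjusted p = 0.76). Its sign turned with the spike-in set as a block, at -0.05.

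Cyp2d40 was the single Cyp2d member that fell. Its probe set read 5.80, 5.64, 5.66, 5.69 and 5.71 in controls and 5.40, 5.59, 5.42, 5.54 and 5.54 in treated animals. All treated values were below all controls, and both groups lay close to the array medians of 5.42 to 5.50. They also lay within the range of the gene means of the kidney markers, 3.478 to 5.925. Whether this signal stands above background was not tested. The mean went from 5.70 ± 0.06 to 5.50 ± 0.08 (SD, n = 5 each), a log2 change of -0.20 ± 0.06 (limma adjusted p = 0.0377), so that the linear value fell by 13.1%. The call was lost with quantile normalisation (-0.16) and median centring (-0.17), with trend and robust variance (adjusted p = 0.0577), and on leaving out any 1 animal other than control replicate 4 or treated replicate 2, where the change lay between -0.22 and -0.18. With the spike-in set as a block the change was -0.19 (adjusted p = 0.481).

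Cyp2d13, the transcribed pseudogene, has 2 probe sets, of which 1 fell and the other was not called. The probe set with the higher mean read 10.38, 10.37, 10.38, 10.57 and 10.35 in controls and 10.47, 10.60, 10.47, 10.50 and 10.54 in treated animals. Control replicate 4 stood among the treated values, and the change of 0.11 ± 0.06 was not called (limma adjusted p = 0.251). It was -0.05 with the spike-in set as a block. The other read 10.38, 10.34, 10.57, 10.08 and 10.33 in controls and 9.90, 10, 9.98, 9.88 and 9.97 in treated animals. All 5 treated values lay below the controls, of which control replicate 4 was the lowest. That probe set fell, with a log2 change of -0.39 ± 0.08 (limma adjusted p = 0.00841 over all probe sets), and the value with the spike-in set as a block was -0.13 (adjusted p = 0.693). The signs of the 2 probe sets thus differed over all arrays and were both negative with the block.

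**Figure D2:**
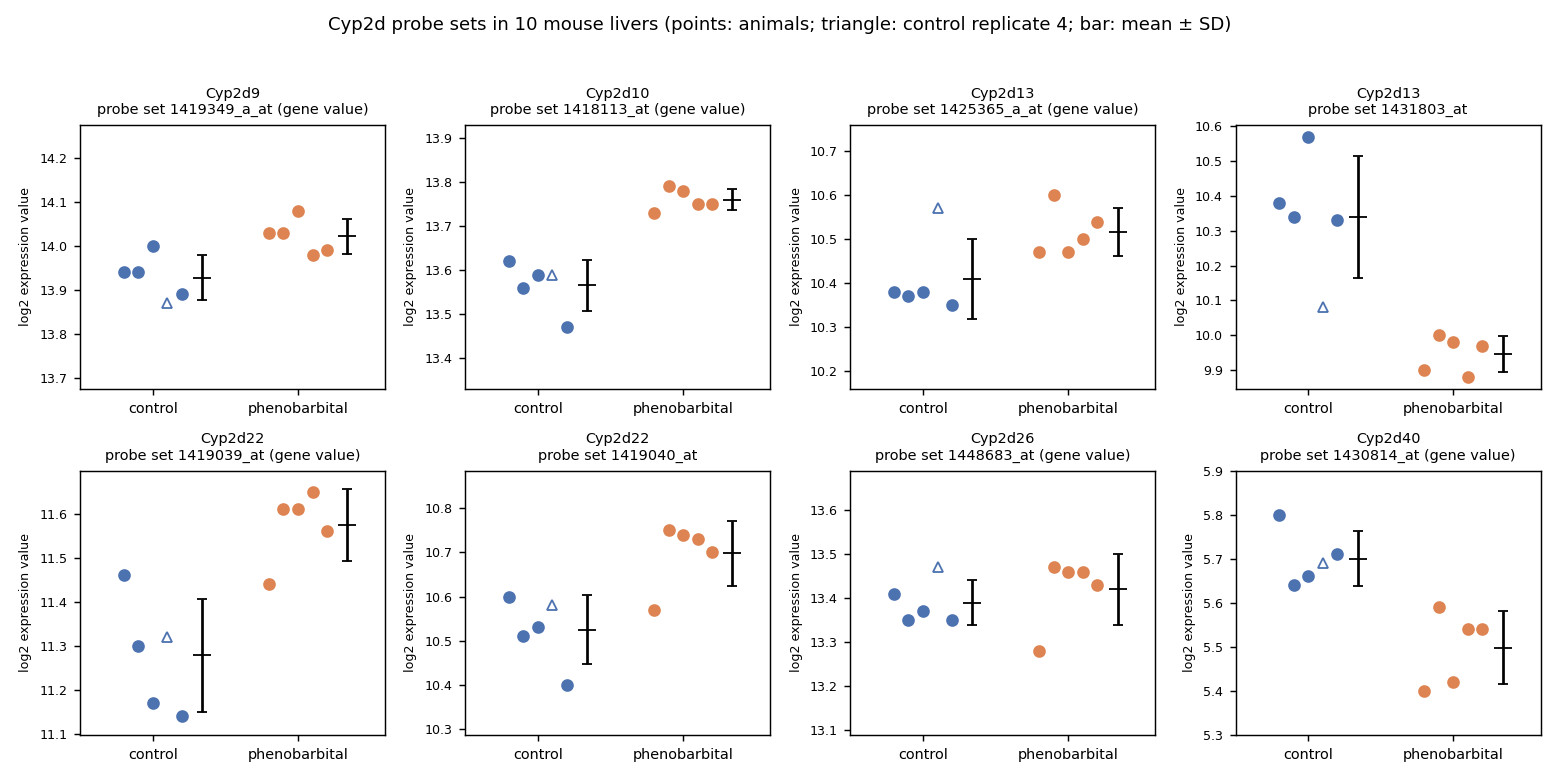
Log2 expression value of each of the 8 Cyp2d probe sets in 5 control and 5 phenobarbital livers (points are animals, the open triangle is control replicate 4, bars are mean ± SD, and each panel has its own scale). Treated values lie apart from all controls for Cyp2d10 (13.73 to 13.79 against 13.47 to 13.62), Cyp2d40 and the second Cyp2d13 probe set, and overlap them in the other panels.

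Cyp2j6, an enzyme known from small intestine as well as liver, was the Cyp2j member that fell. Controls read 8.94, 8.93, 8.71, 9.01 and 8.83, and treated animals 8.54, 8.51, 8.77, 8.53 and 8.45. Treated replicate 3 lay above control replicate 3, and the other 4 treated animals lay below every control. The mean went from 8.88 ± 0.12 to 8.56 ± 0.12 (SD, n = 5 each), a log2 change of -0.32 ± 0.08 (limma adjusted p = 0.0131), so that the linear value fell by 20.1%. It was called whichever animal was left out, between -0.38 and -0.29. The second Cyp2j6 probe set read 8.95, 8.72, 8.75, 8.70 and 8.79 in controls and 8.38, 8.35, 8.70, 8.40 and 8.15 in treated animals. It fell too (log2 change -0.39 ± 0.09, limma adjusted p = 0.0154 over all probe sets). Treated replicate 3 was the highest treated animal on both. Against control replicate 4 alone the change of the first probe set was larger, -0.45, with an unadjusted limma p of 0.00484 and an adjusted p of 0.157. That of the second was smaller, -0.30 (adjusted p = 0.493).

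Cyp2j5, an arachidonic acid epoxygenase of liver and of the kidney's proximal tubule, differed between its probe sets in size. The probe set with the higher mean read 13.01, 12.97, 12.99, 12.95 and 12.99 in controls and 12.94, 12.90, 12.94, 12.93 and 12.89 in treated animals. The groups did not overlap, but the log2 change was only -0.06 ± 0.05 (95% interval -0.17 to 0.05) and was not called (limma adjusted p = 0.423). The other probe set read 10.87, 10.64, 11.05, 10.37 and 10.81 in controls and 10.36, 10.05, 10.19, 9.99 and 10.31 in treated animals. The lowest control, replicate 4, and the highest treated animal were 10.37 and 10.36, so that the groups came within 0.01 of each other. That probe set fell by 32.5% (log2 change -0.57 ± 0.12, limma adjusted p = 0.00815 over all probe sets), and its value with the spike-in set as a block was -0.19 (adjusted p = 0.696). With the mean of both probe sets as the gene's value, Cyp2j5 was called lower (-0.32, limma adjusted p = 0.0104).

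Cyp2j9, known as an arachidonic acid hydroxylase of brain, did not pass the test over all genes. Controls read 7.54, 7.75, 7.59, 7.15 and 7.24, and treated animals 7.41, 6.85, 7.23, 6.87 and 7.06. Both groups were widely spread and overlapped, with control replicate 4 in the middle of the treated values. The log2 change was -0.37 ± 0.13 (95% interval -0.65 to -0.09, limma adjusted p = 0.0631). Without control replicate 4 or without treated replicate 1 it was -0.45 in either case and was called (adjusted p = 0.0256 and 0.0319). It was also called with array weights (-0.44, adjusted p = 0.0254). With the spike-in set as a block it was -0.07 (adjusted p = 0.932), and with the spike-in mean as a covariate it was 0.09.

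Over single probe sets, 2 of the 13 were called higher, against a background of 7.7% of 45037 probe sets, and 5 were called lower, against 11%. The 5 were both Cyp2j6 probe sets and 1 each of Cyp2j5, Cyp2d13 and Cyp2d40. None of the 13 was called with the spike-in set as a block. Of the 4 members with 2 probe sets, both were called for Cyp2j6, 1 for Cyp2d22, Cyp2j5 and Cyp2d13, and the signs over all arrays differed for Cyp2d13. Cyp2d genes are close copies of each other, and which other copies a probe set may pick up was not examined.

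**Figure D3:**
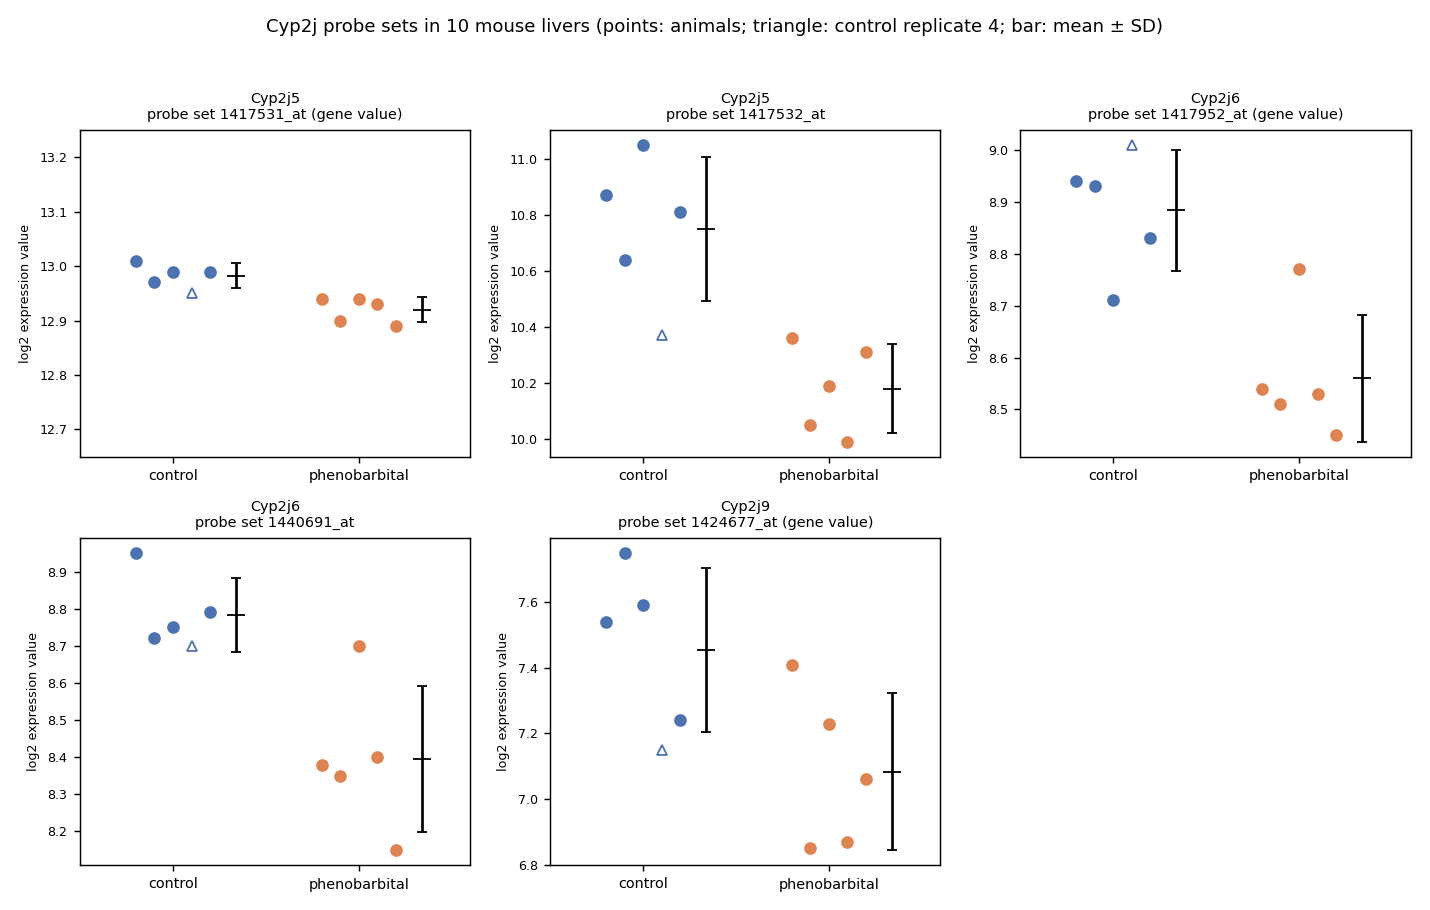
Log2 expression value of each of the 5 Cyp2j probe sets in 5 control and 5 phenobarbital livers (points are animals, the open triangle is control replicate 4, bars are mean ± SD, and each panel has its own scale). The treated mean is below the control mean in every panel, and the size ranges from -0.06 for the first Cyp2j5 probe set to -0.57 for the second.

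**Figure D4:**
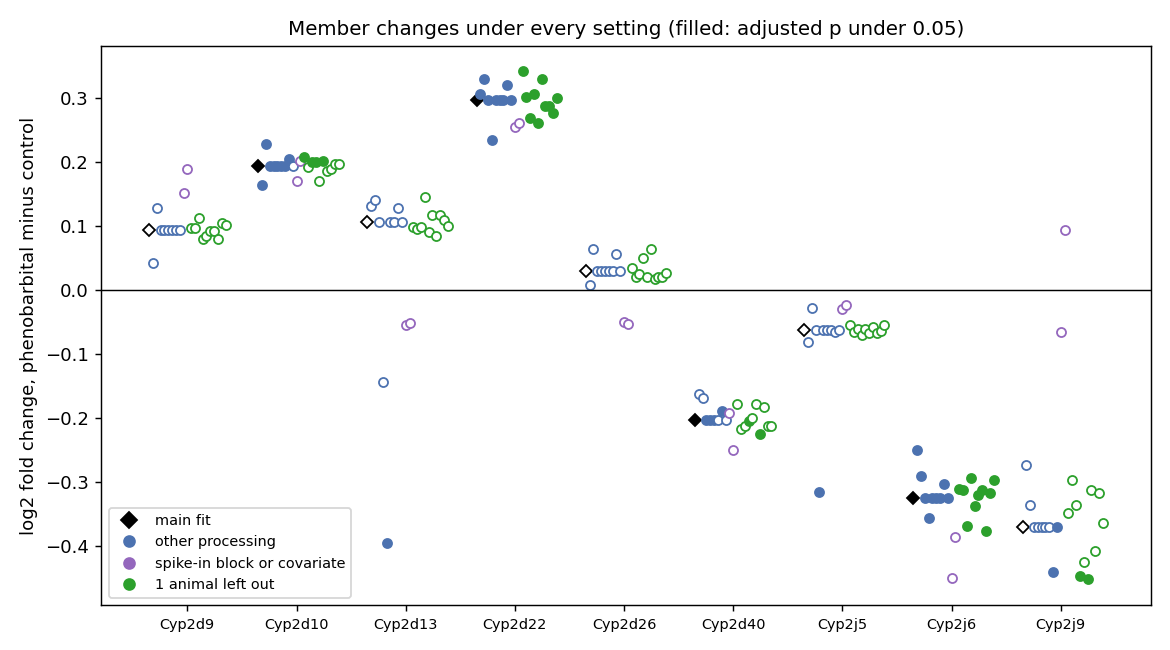
Log2 fold change of each member, phenobarbital minus control, in the main fit (diamonds), under other processing (blue), with the spike-in set or mean in the model (purple) and with 1 animal left out (green), filled where the limma adjusted p was under 0.05. Cyp2d22 and Cyp2j6 are filled in every green point, while Cyp2d10 is filled in 4 and Cyp2d40 in 2 of 10, and points of Cyp2d13, Cyp2d26 and Cyp2j9 lie on both sides of 0.

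Of 9 other listed genes of the same subfamilies 4 were measured, of which 2 rose and none fell (median log2 change 0.19). Of all genes 9.02% were called higher and 11.3% lower. Cyp2d12, which lies between Cyp2d9 and Cyp2d34 in the RefSeq order, had by far the larger change. It read 5.06, 4.51, 4.84, 4.96 and 5.05 in controls and 6.10, 6.60, 6.52, 6.28 and 6.61 in treated animals. The groups were separated by more than 1 log2 unit, control replicate 4 included. The mean went from 4.88 ± 0.23 to 6.42 ± 0.22 (SD, n = 5 each), a 2.90-fold rise (log2 change 1.54 ± 0.12, limma adjusted p = 6.76e-06), and it was 1.46 (adjusted p = 0.0079) with the spike-in set as a block. Cyp2d34 rose from 3.94 to 4.25 (limma adjusted p = 0.039), near the lower quartiles of the arrays. It kept its call in 3 of the 10 fits without 1 animal, and its change with the block was 0.08 (adjusted p = 0.872). Cyp2j11 (0.08, adjusted p = 0.444) and Cyp2j13 (-0.04, adjusted p = 0.77) were not called.

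The partners of these enzymes were read from lists. Beside the counts of this and the following lists stand 9.02% of all genes called higher and 11.3% called lower. Of 8 measured electron donors and haem-binding partners, 2 rose and none fell, with a median log2 change of 0.11. Por, the reductase that passes electrons to P450 enzymes, was listed but was not among the measured genes. Cyb5r3, the reductase of cytochrome b5, went from 12.48 to 12.79 and Cyb5a, cytochrome b5 itself, from 13.95 to 14.11 (limma adjusted p = 0.0128 and 0.0436). Among 17 genes of arachidonic acid release and supply, 2 phospholipase genes rose, Pla2g12a by 0.63 and Pla2g6 by 0.38, and Pnpla8 fell by 0.25, with a median of 0.016. Of 4 epoxide hydrolases 1 rose and 1 fell. Ephx1, the microsomal enzyme that acts on drug epoxides, rose from 12.41 ± 0.14 to 13.06 ± 0.08 (SD, n = 5 each, limma adjusted p = 0.000233). Ephx2, the soluble enzyme that hydrolyses the epoxides of arachidonic acid, fell from 13.22 ± 0.07 to 12.99 ± 0.08 (limma adjusted p = 0.0262), with no overlap between groups. None of these genes was called with the spike-in set as a block.

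Enzymes that use the same fatty acid by other routes were mixed. Of 9 Cyp4 hydroxylases 2 rose (Cyp4f15 by 0.44, Cyp4a12a by 0.26) and 3 fell, with a median of -0.07. The largest fall was that of Cyp4a14, from 7.65 ± 1.40 to 5.88 ± 0.10 (limma adjusted p = 0.0251), and it shrank to -0.13 with the spike-in set as a block. Of 18 cyclooxygenase and lipoxygenase route genes, Alox12 (0.54) and Hpgds (0.44) rose and none fell (median 0.033). Alox12 went from 4.43 to 4.97 and Hpgds from 4.86 to 5.31, below the array medians of 5.42 to 5.50. Whether these signals stand above background was not tested. None of the Cyp4 genes or of these 18 was called with the block.

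Other P450 groups moved over a wider range than the 9 members. Of 10 Cyp2c genes 6 rose and 2 fell, with a median log2 change of 0.56, and 5 and 1 were called with the spike-in set as a block. Cyp2c65 rose from 4.12 to 10.98 and Cyp2c55 from 9.31 to 13.46, while Cyp2c39 fell by 1.02 and Cyp2c68 by 0.61. Of 12 P450 genes listed as inducible 7 rose and none fell (median 0.37), led by Cyp2b10 (7.05) and Cyp2b9 (4.14), and 3 were called with the block. Of 17 other constitutive P450 genes 2 rose and 3 fell, with a median of -0.05. Cyp26a1, which breaks down retinoic acid, rose by 2.89 and Cyp2g1 by 1.42, while Cyp7b1, an oxysterol hydroxylase, fell by 0.50 and Cyp26b1 by 0.44. With the block 1 of the 17, Cyp2g1, was called higher and none lower.

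**Figure D5:**
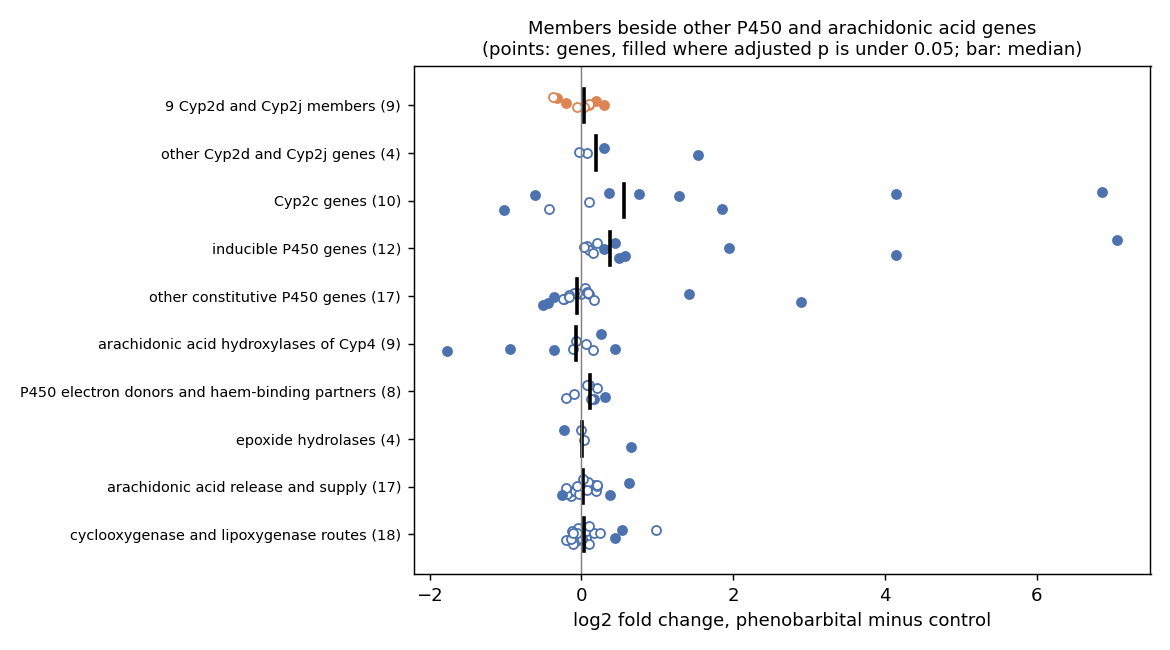
Log2 fold change, phenobarbital minus control, of the 9 members and of 9 lists of related genes (points are genes, filled where the limma adjusted p was under 0.05, and bars are medians). The members lie between -0.37 and 0.30, while Cyp2c and inducible P450 genes reach 6.86 and 7.05.

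Lists that bear on how liver P450 genes are set gave no single direction. The shares called higher and lower were 12.5% and 16.7% for male-biased and 40% and 12% for female-biased genes. They were 0% and 10.7% for growth hormone and regulator genes and 5.88% and 17.6% for xenobiotic receptors and partners. Of all genes 9.02% were called higher and 11.3% lower. Of 24 male-biased liver genes 3 rose and 4 fell (median -0.006), among them Gna14 (1.47) and Keg1 (0.45) upward and Cyp7b1 (-0.50) and Slco1a1 (-0.49), a transporter of organic anions, downward. In the fit with the spike-in set as a block 1 was called higher and 1 lower, the median was -0.16, and Keg1 (0.14), Cyp7b1 and Slco1a1 were not called. Of 25 female-biased genes 10 rose and 3 fell (median 0.19), led by Cyp2b9 and by Prom1 (2.44) upward and by Cyp4a14 and Abcd2 (-0.43) downward. Under that block 4 rises and 1 fall were called among them, and Cyp4a14 and Abcd2 were at -0.13 and -0.05. Among the 10 female-biased genes that rose, Cyp2b9, Cyp2b13, Cyp3a16 and Cyp3a44 were also counted as inducible P450 genes, and Cyp2g1 as another constitutive one. Of 28 genes of growth hormone signalling and regulators of sex-biased expression none rose and 3 fell (median -0.11), with Rsl1, a zinc-finger repressor, at -0.53 and Jak2 at -0.31. With the block none of the 28 was called and the median was -0.26. Of 17 xenobiotic receptors and partners 1 rose, Gadd45b by 1.28, and 3 fell, among them Ppargc1a by 1.42 and Ppara by 0.87 (median -0.03). With the block Gadd45b was called and none of the 3 that fell was.

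Markers of other liver cells were read beside the members. Of 7 stellate cell markers 4 fell and none rose (median -0.43), and their mean lay between 8.51 and 8.62 in controls and between 8.02 and 8.44 in treated animals. Of 7 sinusoidal endothelial markers 3 fell, and of 7 Kupffer cell markers 1 fell. None of 7 lymphocyte and 4 neutrophil markers was called, 1 of 5 cholangiocyte, 1 of 4 pancreas and 1 of 3 erythroid markers rose, and 1 of 11 kidney markers, Slc22a8, rose from 4.01 to 4.27. Of 8 hepatocyte markers 1, Apob, fell. Along the liver lobule, 2 of 9 pericentral markers rose and 1 fell, and 1 of 8 periportal markers rose and 3 fell. Cyp1a2, a pericentral marker that rose, was also counted as an inducible P450 gene. Ass1, a periportal marker that fell, ranged from 6.82 to 9.92 in controls, and its change with the spike-in set as a block was 0.036. In the fit with the spike-in set as a block Lgr5, a pericentral marker that fell, was the single marker of these lists still called, and the medians were -0.50 for stellate and -0.11 for sinusoidal endothelial markers. The part of these markers in the member values was not tested.

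For each member, the gene with the most similar profile was sought among 9087 genes with a mean above the median, by Pearson correlation over the 10 arrays, which share the treatment difference and the spike-in sets. Cyp2d10 was most like Aldh1a1, a retinaldehyde dehydrogenase (r = 0.987), and Cyp2d22 most like Sult1a1, a phenol sulfotransferase (r = 0.969). Aldh1a1 rose by 0.36 and Sult1a1 by 0.29 (limma adjusted p = 0.00217 and 0.0119). Cyp2d40 was most like Gsk3a (r = 0.985), Cyp2j5 most like Cep350 (r = 0.969), and Cyp2j9 most like Tex30 (r = 0.967). Cyp2j6 was most like Cyb5r4, a cytochrome b5 type reductase (r = 0.974), although Cyb5r4 itself changed by only -0.10 (adjusted p = 0.2). Cyp2d9 with Atr (0.928), Cyp2d13 with Rabac1 (0.956) and Cyp2d26 with Nsf (0.948) had the lowest of these correlations. With 10 arrays and 9087 genes, a highest correlation of this size is a description only.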

How the data were processed

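Liver RNA of 10 mice was hybridised to 1 Affymetrix array each, after 3′ in vitro transcription labelling from 0.1 µg, per the labels' protocols. The authors deposited 1 log2 value for each probe set on each array. The log2 scale is inferred from the range of values, and how probes were summarised and normalised is not given in the sources read; GCOS, without a version, is in the submitters' processing notes. Values were used as deposited (largest quartile difference 0.16), and the number of arrays limits the precision. A gene was its single-symbol probe set with the highest mean. Groups were compared with limma 3.58.1 in R 4.3.3 (two-sided, adjusted over all genes, or over all probe sets where stated), tested on simulated data. The replicate numbers did not pair the animals (correlations of deviations -0.02 to 0.12). The members and lists were chosen with earlier results of these data known. Named genes were all members, up to 4 called genes a list (the 2 largest each way), and the most similar gene. Other genes named for a check, such as Cyp2b10, came from these lists. Of several-symbol probe sets (932) and unnamed ones (9160) none entered the genes. Promoters were aligned with Biopython 1.88.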

Additional observations from a re-analysis of the deposited data

Results flagged for a closer look

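Single animals stood apart from the other 4 of their group in 4 of the 26 sets of 5 values given by the 13 member probe sets and both groups, by Dixon's test at the 95% level. Chance alone gives about 1 in 20 for independent sets. These sets share the same 10 animals and some share a gene, so their number cannot be weighed against that rate. The ratios of the first Cyp2j6 probe set (0.719) and the second Cyp2d22 probe set (0.722) lay just over the critical value of 0.71. For Cyp2j6, treated replicate 3 read 8.77 on the first probe set, while the others read 8.45 to 8.54. Treated replicate 1 read 10.57 on the second Cyp2d22 probe set, where the others read 10.70 to 10.75, and 13.28 for Cyp2d26, where the others read 13.43 to 13.47. Control replicate 4 read 10.57 on the first Cyp2d13 probe set, while the other controls read 10.35 to 10.38.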

How the results depend on the processing

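The members were refitted under 21 other settings, without Cyp2d9 among single-transcript probe sets. The 2 members called higher became 1 with a replicate block and 0 with the spike-in set block or the spike-in mean as a covariate, and ranged from 1 to 2 with 1 animal left out. With the replicate block Cyp2d10 (adjusted p = 0.0594) and Cyp2d40 (0.0755) lost their calls and Cyp2j9 (0.042) gained one. The 2 called lower became 1 with quantile normalisation, median centring, brighter genes alone (where Cyp2d40 was not tested) or trend and robust variance, 0 with either spike-in term, and ranged from 1 to 3 with 1 animal left out. Probe sets called higher went from 2 to 1 with the replicate block, 0 with either spike-in term, and 1 to 2 with 1 animal left out. Probe sets called lower went from 5 to 0 with either spike-in term. Some settings gave more calls. Members called lower became 3 with the mean of probe sets, single-transcript probe sets or array weights. With single-transcript probe sets Cyp2d13 was among them (limma adjusted p = 0.00653). Probe sets called higher became 3 with trend and robust variance or array weights, and those called lower became 6 without control replicate 4. In the replicate block, 2 of 5 controls and 2 of 5 treated animals correlated best with their own number. The sign of Cyp2d13 turned to -0.14 with the mean of probe sets, -0.39 with single-transcript probe sets, -0.054 with the spike-in set block and -0.051 with the covariate. Cyp2d26 turned to -0.05 with that block and -0.053 with the covariate, and Cyp2j9 to 0.094 with the covariate. Over all genes, calls were higher in 44.4% of cases, in 60.0% when quantiles were made equal, in 58.8% when medians were, and in 31.8% among brighter genes, and no scaling moved the median by over 0.1. Apart from what each alternative leaves out, the cause was not tested.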
